A study of Arabis alpina with 19 samples.

Results

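A set of 150 transcript targets of Arabis alpina had higher mean levels in the perennial zone of the lateral stem at 7 and 30 weeks than in every other sample group of the study. Some members were also abundant in the other groups. The members were chosen from the measured levels. For each of the 30158 targets of the series table, the mean level of each of 6 sample groups was put on a log2(mean TPM + 1) scale and the 6 values were sorted. TPM is the transcript abundance per length, scaled to 1 fixed total per library. A target met the rule when the largest gap between neighbouring groups was at least 1, exactly the 7-week and 30-week perennial zone lay above that gap, and each of these had a mean of at least 5 TPM. In all, 196 targets met it, and the 150 with the largest gap were kept. The rule left out replicate 3 of the 4-week group because it was already known to hold transcripts of the 7-week stem, so the levels in that library are also a description. The group means themselves are a description, and no test is attached to a difference across the gap.

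Arabis alpina is a perennial relative of Arabidopsis thaliana. PEP1, the gene mutated in pep1-1, is its orthologue of the floral repressor FLC, and pep1 mutants flower without a cold period. The lateral stems of the plant hold a lower, perennial zone (PZ) that lives on after flowering and an upper, annual zone (AZ) that carries the inflorescence and later dies. In a perennial stem zone the vascular cambium adds secondary xylem and phloem, a cork cambium adds periderm, and parenchyma stores carbohydrate and lipid. Cytokinin, a hormone known to promote cambial division, is named in the title of the series.

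All 19 libraries came from whole internodes of lateral stems of pep1-1 plants grown in long days, so the mutation was shared by every group and no wild-type sample was compared. The stems grew from the first nodes of the main axis. Perennial-zone samples, always the first internode, were the groups I_PZ at an age of 4 weeks, II_PZ at 5, III_PZ at 7 and IV_PZ at 30, each of 3 libraries. From 30-week plants a short internode of the annual zone (IV_AZ_si, 4 libraries) and an annual-zone internode close to the inflorescence (IV_AZ_if, 3 libraries) were also taken. Each replicate, called biological in the study design, pooled 12 plants. Libraries held 21032841 to 27999048 estimated counts. Identifiers come without gene names in the files, so the roles of the members and the marker genes of the tissues were not tested here, and no sequence is shown. For these members 2 libraries stood apart from their groups: I_PZ replicate 3, which was kept out of the choice and the tests, and IV_AZ_si replicate 2, without which the main results on the short internode are also given. The study design states 3 biological replicates per stage, while IV_AZ_si has 4 labelled libraries, and all 4 were used.

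**Figure D1:**
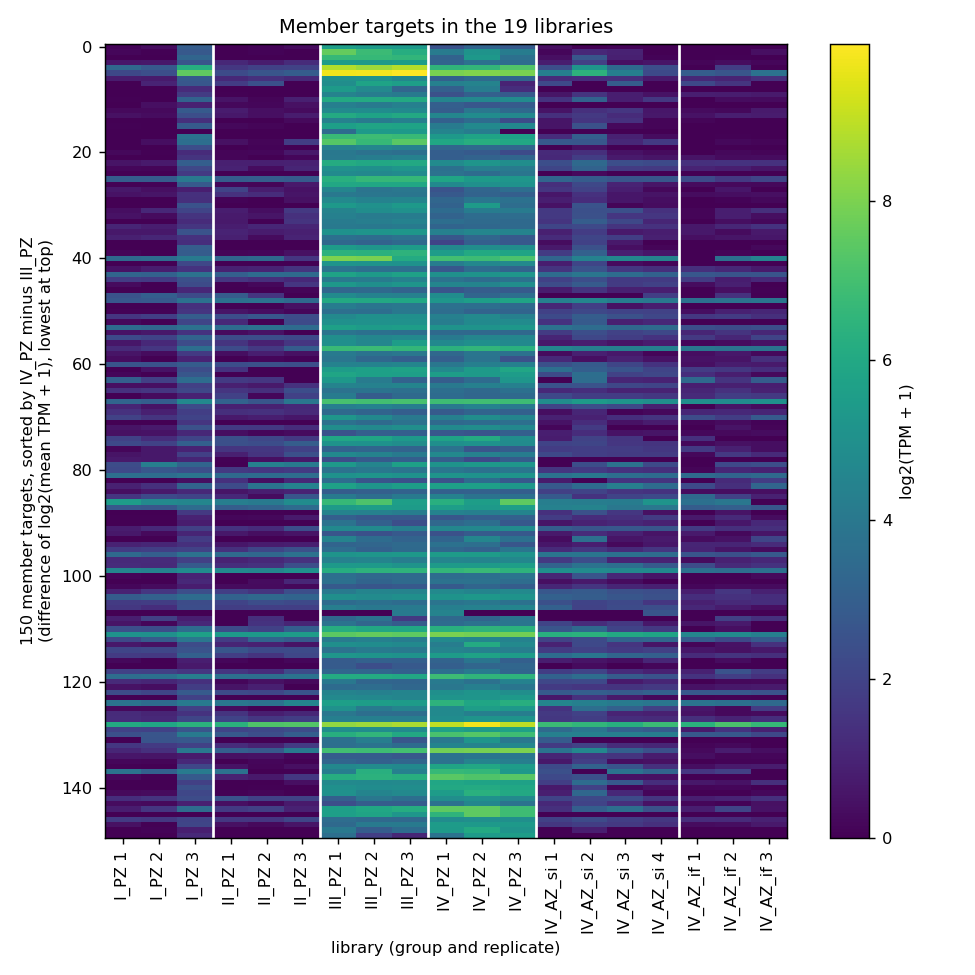
Level of each of the 150 members (rows) in each of the 19 libraries (columns, grouped by sample group), as log2(TPM + 1) on the colour scale, with rows sorted by the difference of IV_PZ minus III_PZ. The 3 III_PZ and 3 IV_PZ columns carry the high values, I_PZ replicate 3 is brighter than its 2 group mates, and IV_AZ_si replicate 2 is brighter than the other short internodes.

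Together the members made up a far larger part of the transcript pool in III_PZ and IV_PZ than elsewhere. Their summed level was 420.4 and 397 TPM in I_PZ replicates 1 and 2, and 451, 518 and 629.9 TPM in II_PZ. In III_PZ it was 6772, 6542 and 6471 TPM, and in IV_PZ 5431, 6349 and 5553 TPM. In the annual zone it was 759.7, 1074, 707 and 629 TPM in IV_AZ_si and 347, 420.2 and 382 TPM in IV_AZ_if. Every III_PZ and IV_PZ library thus lay far above every other library, which the rule fixed. As a share of all TPM the members held 0.0409% ± 0.00166 (SD, n = 2) in I_PZ, 0.0533% ± 0.00904 (n = 3) in II_PZ, 0.659% ± 0.0157 (n = 3) in III_PZ and 0.578% ± 0.0498 (n = 3) in IV_PZ. The short internode held 0.0792% ± 0.0195 (SD, n = 4), or 0.0698% ± 0.00659 (SD, n = 3) without replicate 2, and the internode near the inflorescence 0.0383% ± 0.00368 (SD, n = 3). The order of III_PZ and IV_PZ turned with the unit, because as a share of estimated counts the members held 0.665% in III_PZ and 0.704% in IV_PZ. In whole internodes, a change in the number of cells of a type and a change in the RNA per cell cannot be told apart.

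**Figure D2:**
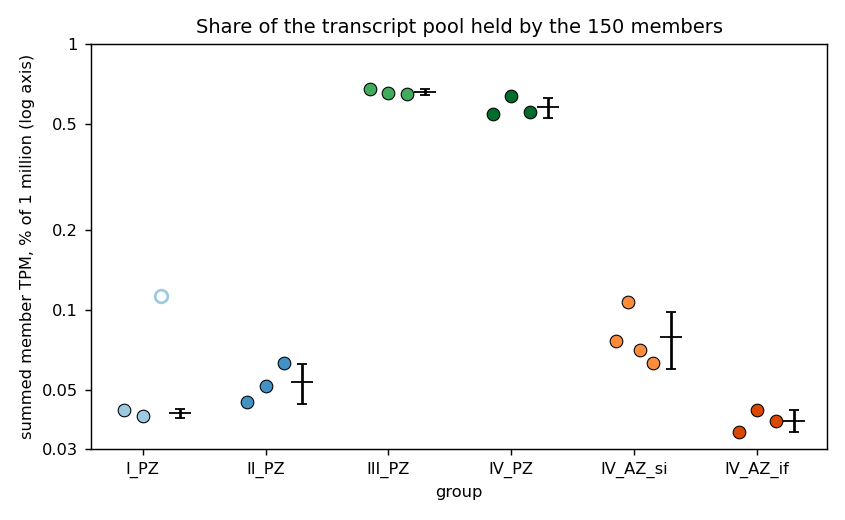
Summed level of the 150 members as a percent of all TPM in each library, on a logarithmic axis, with bars for the group mean and its SD; the open circle is I_PZ replicate 3, which is outside the mean. III_PZ and IV_PZ lie between 0.543% and 0.677%, I_PZ replicate 3 at 0.113%, and the other libraries between 0.0347% and 0.107%.

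The gap that placed a target in the set ran from 1.27 to 5.58 on the log2(mean TPM + 1) scale, with a median of 1.99. At the edge, Aa_G18690.h1 was kept with a gap of 1.29, and Aa_G184810.h1 and Aa_G532680.h1 with 1.27. Aa_G714150.h1 fell just outside with 1.25, and Aa_G103800.h1 and Aa_G696480.h1 with 1.24. These neighbours differed little: Aa_G184810.h1 had means of 63.1 TPM in III_PZ and 18.5 TPM in IV_AZ_si, and Aa_G714150.h1 had 53.2 and 21.7 TPM. Targets at the edge were thus clearly present below the gap as well as above it.

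The widest gap belonged to Aa_G206640.h1, a short target of 162 bases of coding length. It was at 0 in all 13 libraries outside III_PZ and IV_PZ, and held 48.3, 55.2 and 36.8 TPM in III_PZ and 88.1, 182 and 116 TPM in IV_PZ. Its levels rest on 45 and 142 estimated counts over the 3 libraries of each group. Aa_G167680.h1 (825 bases) held 74.1, 84.4 and 75.5 TPM in III_PZ and 169, 150.5 and 166 TPM in IV_PZ, against 0.196 and 0.0353 TPM in I_PZ replicates 1 and 2 and 0.868, 0.623 and 2.1 TPM in II_PZ. In IV_AZ_if it was at 0 in all 3 libraries, and in IV_AZ_si it held 3.59, 4.42, 0.405 and 0.356 TPM. The second target was thus already detected in every library at 4 and 5 weeks, far below its later level. The first was not seen before 7 weeks.

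Aa_G468680.h1 (1107 bases), at 0 in all 3 II_PZ libraries, had 107, 114 and 106 TPM in III_PZ and 40.9, 53.6 and 49.7 TPM in IV_PZ. In I_PZ replicates 1 and 2 it had 0.0271 and 0 TPM, in IV_AZ_if 0, 0.0479 and 0 TPM, and in IV_AZ_si 1.39, 7.13, 0.893 and 0.246 TPM. On the counts, with the floor of 3 counts over the group for II_PZ, it was at least 3875-fold higher in III_PZ than in II_PZ, a bound for counting error only. Aa_G310010.h1 (954 bases) had group means of 83.1 ± 4.54 TPM in III_PZ and 55.1 ± 9.78 TPM in IV_PZ (SD, n = 3 each), and Aa_G348140.h1 (807 bases) 29.1 ± 1.6 and 64.3 ± 3.59 TPM. Both had means under 0.2 TPM in I_PZ and II_PZ. Aa_G68110.h1 (606 bases) had 194, 109 and 73.3 TPM in III_PZ, 16.7, 33.9 and 17.4 TPM in IV_PZ, and at most 1.22 TPM in the other libraries that chose it.

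A few members carried much of the summed level. The 10 most abundant held 41.3% of it in III_PZ and 37.9% in IV_PZ; 11 members reached 100 TPM in III_PZ, 12 in IV_PZ, and 7 in both. The median member had a mean of 22.4 TPM in III_PZ and 20.5 TPM in IV_PZ, against 0.501 TPM in I_PZ, 0.955 in II_PZ, 2.17 in IV_AZ_si and 0.563 in IV_AZ_if. The most abundant was Aa_G580550.h1 (240 bases), with 876, 881 and 1006 TPM in III_PZ and 251, 268 and 247 TPM in IV_PZ. It was detected in every other library, at 3.51 and 4.21 TPM in I_PZ replicates 1 and 2, 3.88, 5.22 and 6.48 TPM in II_PZ, 6.78, 5.17 and 12.5 TPM in IV_AZ_if, and 18.9, 85.7, 18.7 and 3.71 TPM in IV_AZ_si. Its III_PZ libraries all exceeded its IV_PZ libraries, and 1 short internode, replicate 2, stood above its group mates.

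The next most abundant members had unlike profiles below the gap. Aa_G53830.h1 (165 bases) held 326, 369 and 412 TPM in III_PZ and 519, 861 and 507 TPM in IV_PZ, but also 58.8 to 157 TPM in all 13 other libraries. Aa_G465700.h1, a long target of 2688 bases, held 174, 196 and 182 TPM in III_PZ and 247, 232 and 231 TPM in IV_PZ. It had 55.3 to 82.4 TPM in IV_AZ_si, 40.3 to 44.1 TPM in II_PZ, 32.9 and 31.4 TPM in I_PZ replicates 1 and 2, and 18.6 to 26.5 TPM in IV_AZ_if. Both targets were thus present in every library of the study. Aa_G270790.h1 (858 bases) had 124, 116 and 127 TPM in III_PZ and 228, 243 and 254 TPM in IV_PZ, and its lower groups ran from a mean of 0.389 ± 0.266 TPM in IV_AZ_if (SD, n = 3) to 12.1 ± 8.66 TPM in IV_AZ_si (SD, n = 4). Aa_G25060.h1 (187 bases), which shares reads with other targets, had 256, 241 and 68.4 TPM in III_PZ and 122, 115 and 142 TPM in IV_PZ, so these groups overlapped.

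Between the 3 libraries of a group, the coefficient of variation (SD over mean) of the members had a median of 10.4% in III_PZ and 15.4% in IV_PZ. Over all targets with a mean of at least 5 TPM the medians were 8.2% in III_PZ (16475 targets) and 9.61% in IV_PZ (15418 targets). The widest spread lay in short members. The 22 members under 300 bases (14.7% of the set, against 13.3% of the table) had a median coefficient of variation of 43.9% in III_PZ and 41.4% in IV_PZ, against 9.38% and 14% in the others. Over the 6 high libraries the members had a median of 3389.5 estimated counts, but Aa_G319740.h1, Aa_G201080.h1, Aa_G209850.h1, Aa_G473530.h1 and Aa_G208620.h1 had 7, 19, 56, 57 and 73. All 5 were under 300 bases, and Aa_G201080.h1, Aa_G209850.h1 and Aa_G473530.h1 were named after their values were seen. Aa_G319740.h1, the shortest at 102 bases, was seen only in III_PZ replicate 3 (16.2 TPM), IV_PZ replicate 1 (21 TPM) and IV_AZ_si replicate 4 (5.15 TPM), so its place in the set rests on 1 library per group.

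Of the features outside the rule, the median coding length was 892.5 bases (102 to 4056) against 963 in the table, and 29 members (19.3%) shared reads with other targets against 18.4%. No member had counts identical to those of another target, and all 150 identifiers ended in h1. The longest member, Aa_G404830.h1 (4056 bases, shared reads), had 24.9, 25.3 and 24.9 TPM in III_PZ and 58.4, 54.4 and 50.9 TPM in IV_PZ. It had at most 0.314 TPM in II_PZ and in I_PZ replicates 1 and 2, 0.385 to 1.53 TPM in IV_AZ_if and 1.47 to 10.5 TPM in IV_AZ_si.

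Across the gap the members were called by construction. Calls came from the edgeR quasi-likelihood test at a Benjamini-Hochberg adjusted p under 0.05, in 1 fit of 23904 targets and 18 libraries, without I_PZ replicate 3; 148 of the 150 members could be tested, and Aa_G319740.h1 and Aa_G201080.h1 had too few counts. III_PZ exceeded II_PZ in 147 members (98% of the set, against 28.3% of all tested targets). IV_PZ exceeded IV_AZ_si in 146 (97.3%, against 25.8% of all) and IV_AZ_if in 145 (96.7%, against 32.6% of all). No member was called lower in III_PZ (28.3% of all), in IV_PZ against IV_AZ_si (30.7% of all) or in IV_PZ against IV_AZ_if (36.6% of all), in edgeR or DESeq2, and every fitted fold change was above 0. The rule used these contrasts, and nothing is read from the counts.

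The step from 7 to 30 weeks joined the 2 groups above the gap, and the rule did not set its direction. The set split almost evenly. In IV_PZ 25 members (16.7% of the set) were called higher than in III_PZ, against 25.1% of all tested targets. Another 26 (17.3% of the set) were called lower, against 30% of all. Together, 51 members (34%) were called, against 55% of all targets, a share that the rule can lower because it limits how far apart the 2 groups may lie. The median log2 fold change was -0.04 in the members and -0.01 over all targets, with members from -2.69 to 2.80. In TPM, the 2 groups were fully apart for 93 members. Of these, 38 (25.3% of the set) were higher in IV_PZ, against 27% of all targets. The other 55 (36.7% of the set) were lower, against 35.3% of all. Both shares lay near those of all targets, so this separation is not particular to the members.

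**Figure D3:**
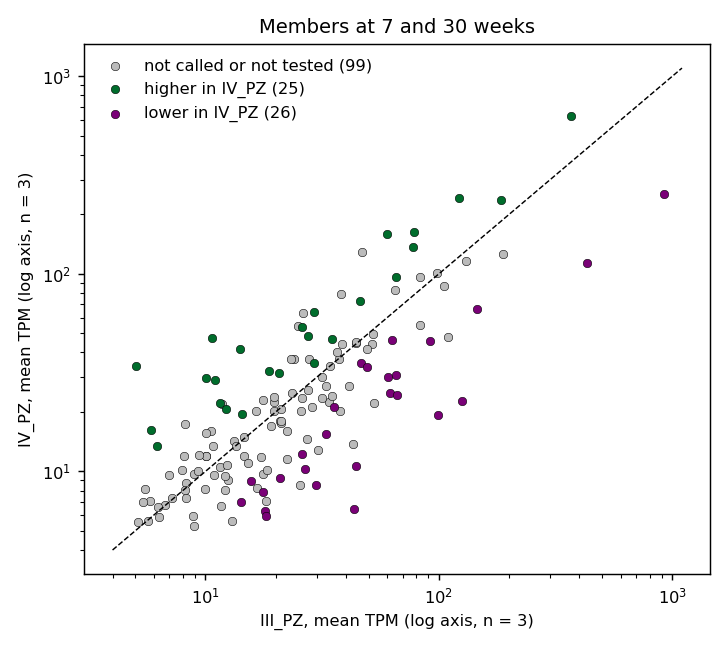
Mean TPM of each member in III_PZ (horizontal) and IV_PZ (vertical), both on logarithmic axes, coloured by the edgeR call; the dashed line marks equal levels. The 25 members called higher in IV_PZ lie above the line, the 26 called lower lie below it, and the 99 others, 2 of them untested, lie on both sides.

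Among the members called higher at 30 weeks, Aa_G110270.h1 (1620 bases) had 11, 9.71 and 9.41 TPM in III_PZ and 28.2, 30.2 and 30.7 TPM in IV_PZ. Its log2 fold change was 1.62 ± 0.19 (SE; adjusted p = 1.86e-06, edgeR). Aa_G316810.h1 (819 bases) rose from 9.71, 16.3 and 16.4 TPM to 43.8, 40 and 40.8 TPM, a log2 difference of 1.61 ± 0.25 (SE; adjusted p = 3.85e-05, edgeR). In both targets every IV_PZ library lay well above every III_PZ library, and both calls held under each alternative tried. Aa_G101260.h1 (1575 bases, shared reads) had 15.4, 6.52 and 10.1 TPM in III_PZ and 42, 65.4 and 34.4 TPM in IV_PZ, without overlap. Its log2 fold change was 2.19 ± 0.50 (SE; adjusted p = 0.00162, edgeR), but in DESeq2 it was not called (adjusted p = 0.372).

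The largest fitted rise, in Aa_G246010.h1 (210 bases), rested on few counts. It had 11.5, 2.57 and 1.12 TPM in III_PZ and 13.1, 44 and 45.7 TPM in IV_PZ, from 12 and 96 counts, so the nearest libraries of the groups lay close together. The log2 fold change was 2.80 ± 0.99 (SE; adjusted p = 0.0378, edgeR). The call was lost without III_PZ replicate 2 or 3 (adjusted p = 0.115 and 0.111, edgeR) and without IV_PZ replicate 2 or 3 (0.0863 and 0.0985), and without III_PZ replicate 1 the log2 fold change was 4.19. It was also lost in DESeq2 (adjusted p = 0.132) and with no filter on low counts (0.0619).

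Of the members called lower without overlap, the 4 with the steepest falls had log2 fold changes of -2.01 or below. Aa_G1028710.h1 (522 bases) fell from 47, 42 and 40.3 TPM to 4.72, 8.41 and 6.13 TPM, a log2 difference of -2.69 ± 0.36 (SE; adjusted p = 1.42e-05, edgeR). Aa_G75970.h1 (1791 bases, shared reads) fell from 44, 42.4 and 45.7 TPM to 8.37, 12.4 and 11 TPM, a log2 difference of -2.01 ± 0.40 (SE; adjusted p = 0.000399, edgeR). In these targets the III_PZ libraries lay close together, and the IV_PZ libraries varied more for their size around a far lower level.

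The other 2 varied more within a group. Aa_G68110.h1, whose levels were given with the widest gaps, fell without overlap of its libraries, and its log2 difference was -2.42 ± 0.42 (SE; adjusted p = 0.0001, edgeR); in DESeq2 it was not called (adjusted p = 0.0743). Aa_G301660.h1 (1470 bases, shared reads) had 101, 102 and 93.4 TPM in III_PZ and 7.74, 38.5 and 11.9 TPM in IV_PZ. Its log2 difference of -2.32 ± 0.68 (SE; adjusted p = 0.00863, edgeR) was -3.25 without IV_PZ replicate 2, the library that stood above its group mates, and it was not called in DESeq2 (adjusted p = 0.141) or in a fit with all 19 libraries (adjusted p = 0.062, edgeR).

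The most abundant members moved in both directions. Aa_G580550.h1 fell by 1.80 ± 0.46 on the log2 scale (SE; adjusted p = 0.00305, edgeR). Aa_G432430.h1 (219 bases) had 452, 366 and 471 TPM in III_PZ and 91.3, 95.2 and 155 TPM in IV_PZ, a fall of 1.86 ± 0.46 (SE; adjusted p = 0.00265, edgeR). Against these, Aa_G53830.h1, Aa_G465700.h1 and Aa_G270790.h1 rose, with log2 fold changes of 0.81 ± 0.27, 0.42 ± 0.13 and 1.04 ± 0.40 (SE; adjusted p = 0.0155, 0.0122 and 0.0342, edgeR). Of the widest-gap members, Aa_G348140.h1 and Aa_G167680.h1 rose by log2 fold changes of 1.20 ± 0.39 and 1.11 ± 0.42 (SE; adjusted p = 0.0167 and 0.0362, edgeR), while Aa_G206640.h1, Aa_G468680.h1 and Aa_G310010.h1 did not pass, at 1.5, -1.13 and -0.54 (adjusted p = 0.0629, 0.0749 and 0.334, edgeR). Aa_G25060.h1 did not pass either, at -0.51 (adjusted p = 0.464, edgeR).

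The 2 classes differed in level as the calls require: the median member called higher went from 25.8 to 46.6 TPM, and the median member called lower from 45.2 to 20.2 TPM. Their coding lengths were alike, with medians of 1005 and 922.5 bases. Below the gap, the short internode was the next highest group for 17 of the 25 and for 20 of the 26. No share over all targets was taken for this order. The number called lower was the less steady, at 17, 15, 16 and 17 without III_PZ replicates 1 and 3 and IV_PZ replicates 1 and 2 in turn, against 26; the number called higher stayed between 17 and 20 when a library of either group was left out.

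Below the gap the short annual internode came next for most of the set. It was the next highest group for 105 members, II_PZ for 24, I_PZ for 11 and IV_AZ_if for 6, and the 4 others were at 0 in all of these groups. Without IV_AZ_si replicate 2 the short internode was next for 94 and II_PZ for 32. The lowest group was IV_AZ_if for 58 members and I_PZ for 53, and for 19 members groups were tied at the lowest level. These orders were not counted over all targets, so they only describe the set. In the 12 libraries below the gap that chose the members, 77 members had a count in every library. Aa_G206640.h1, Aa_G209850.h1, Aa_G328880.h1 and Aa_G246010.h1 had none in any, of which Aa_G209850.h1 and Aa_G328880.h1 are named after their values were seen, to complete the count.

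**Figure D4:**
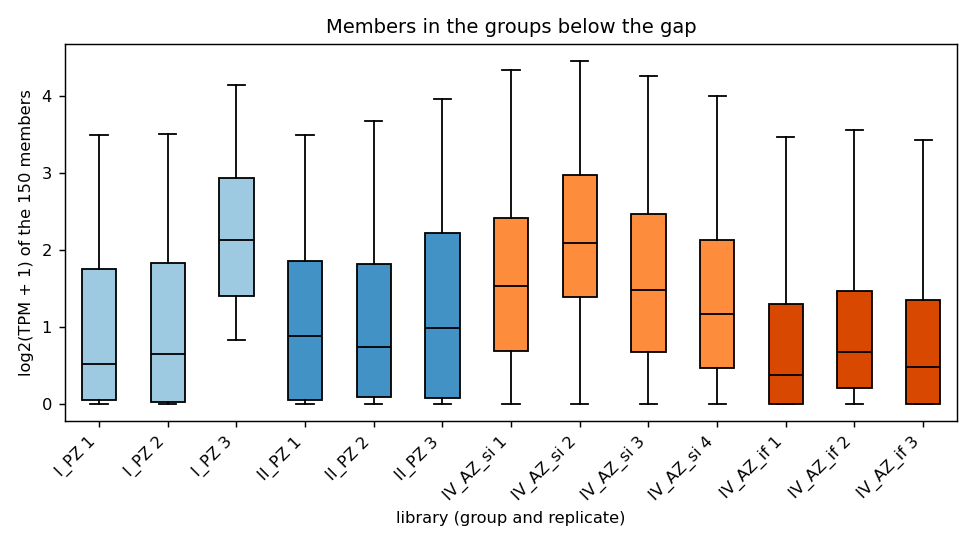
Spread of log2(TPM + 1) over the 150 members in each of the 13 libraries outside III_PZ and IV_PZ, with boxes from the lower to the upper quartile and a line at the median. The IV_AZ_si boxes lie above those of IV_AZ_if, and the highest medians are those of I_PZ replicate 3 (3.38 TPM) and IV_AZ_si replicate 2 (3.27 TPM).

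The 2 annual internodes, both below the gap, held unequal levels of the set. In all, 95 members (63.3% of the set) were called higher in IV_AZ_si than in IV_AZ_if, against 22.8% of all tested targets. Of these, 90 (60% of the set) were at least 2-fold higher, against 6.48% of all. Another 4 members (2.67% of the set) were called lower, against 24.6% of all. Called or not, all 4 IV_AZ_si libraries lay above all 3 IV_AZ_if libraries for 86 members (57.3% of the set), against 33.7% of all. The median log2 fold change over the members was 1.72 against 0.02 over all targets, or 1.70 with members at 0 in a group set to their bound. Scaling by TPM moved the all-target median to 0.19 and that of the members to 1.89. Without IV_AZ_si replicate 2, 80 members were called higher, 74 of them at least 2-fold, and 3 lower. The groups then did not overlap for 87 higher members, and the median log2 fold change was 1.38. No share over all targets was taken without this library, so these counts have no background beside them.

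No IV_AZ_if library held Aa_G167680.h1: with the floor of 3 counts over that group it was at least 54.4-fold higher in IV_AZ_si (adjusted p = 0.00212, edgeR). The bound was 34.9-fold without IV_AZ_si replicate 2. Aa_G751080.h1 (1152 bases) was also at 0 in IV_AZ_if and had 0.403, 4.85, 0.106 and 0.257 TPM in IV_AZ_si, so the difference lay mostly in 1 library. It was at least 53.8-fold higher (adjusted p = 0.0377, edgeR), but 9.92-fold without IV_AZ_si replicate 2, where the call was lost (adjusted p = 0.113). The call was lost too without IV_AZ_if replicate 1, 2 or 3 (adjusted p = 0.0802, 0.0879 and 0.0828), and in 7 of 18 alternatives altogether. Leaving out 1 of the 3 libraries at 0 lowered its bound to 36.6-, 33.9- and 37.2-fold, and that of Aa_G167680.h1 without IV_AZ_if replicate 2 to 34.2-fold, through the smaller depth alone.

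The 4 members that went the other way were Aa_G64090.h1, Aa_G6390.h1, Aa_G339910.h1 and Aa_G208620.h1; Aa_G6390.h1 is named after its values were seen, to complete the count. Aa_G64090.h1 (954 bases) had 4.02, 2.48 and 6.01 TPM in IV_AZ_if and 0.872, 0.9, 1.48 and 1.86 TPM in IV_AZ_si, without overlap. Its log2 fold change was -1.84 ± 0.35 (SE; adjusted p = 0.000309, edgeR) and its call held under each alternative. Aa_G6390.h1 (1314 bases) had 1.02, 1.05 and 1.34 TPM in IV_AZ_if and 0.517, 0.797, 0.182 and 0.54 TPM in IV_AZ_si, a log2 difference of -1.33 ± 0.35 (SE; adjusted p = 0.00445, edgeR). Aa_G339910.h1 (1251 bases) had 1.08, 1.2 and 1.07 TPM in IV_AZ_if and 0.287, 1.09, 0.0722 and 0.17 TPM in IV_AZ_si, where replicate 2 overlapped the other group (log2 difference -1.65 ± 0.5, SE; adjusted p = 0.0111, edgeR). Aa_G208620.h1 (228 bases) had 0, 2.71 and 1.63 TPM in IV_AZ_if and none in IV_AZ_si. It rested on 6 counts, was at least 2.55-fold lower in IV_AZ_si on the floor of 3 counts over that group (adjusted p = 0.0468, edgeR), and lost its call without any 1 of the 4 IV_AZ_si libraries or without IV_AZ_if replicate 2, where the bound was 1.35-fold, or 3. Altogether its call was lost in 11 of 18 alternatives.

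Between 4 and 5 weeks, also below the gap, few members were called. Only I_PZ replicates 1 and 2 entered this comparison. II_PZ was called higher in 15 members (10% of the set), near the 8.29% of all tested targets, and lower in 1 (0.667%), against 5.99% of all. In edgeR 42 members had an unadjusted p under 0.05, and the mean was higher in II_PZ for 100 of the 150 members. No share over all targets was taken for either count, so nothing is read from them. The median log2 fold change was 0.44 (0.53 with members at 0 in a group set to their bound) against 0 over all targets. For 43 members (28.7% of the set) the II_PZ libraries lay above both I_PZ libraries, against 20.1% of all. For 17 (11.3% of the set) they lay below both, against 27.2% of all. The count rested on single libraries: it was 1 without I_PZ replicate 1, 3 without I_PZ replicate 2 and 9 without II_PZ replicate 3, where leaving out an I_PZ library leaves 1, which is assumed to vary like the other groups. DESeq2 called 30 higher and 3 lower, and the fit with all 19 libraries called 2 higher and 8 lower.

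Of the members called higher whose II_PZ mean reached 1 TPM, the 2 with the highest fold changes had few counts at 4 weeks. Aa_G35700.h1 (384 bases) had 0 and 0.239 TPM in I_PZ and 2.79, 0.132 and 2.81 TPM in II_PZ, so the groups overlapped. The ratio of II_PZ to I_PZ on its 41 and 2 counts was 14.9, with a 95% exact Poisson interval of 4.12 to 123 (adjusted p = 0.0259, edgeR). Its call was lost without I_PZ replicate 1 or 2 (ratio 7.88, and a bound of 4.67-fold) and without II_PZ replicate 1 or 3 (ratios 11.5 and 10.9), and the ratio was 22.6 without II_PZ replicate 2. Aa_G458420.h1 (222 bases) had 0.881 and 1.59 TPM in I_PZ and 3.9, 13.1 and 20.4 TPM in II_PZ, without overlap. On 42 and 3 counts the ratio was 10.2, with a 95% exact Poisson interval of 3.48 to 49.3 (adjusted p = 0.0171, edgeR), and the call was lost without I_PZ replicate 1 or 2 (adjusted p = 0.156 and 0.115) or II_PZ replicate 3 (adjusted p = 0.0754). The Poisson intervals cover counting error only. Over all alternatives tried, the call of Aa_G35700.h1 was lost in 9 of 18 and that of Aa_G458420.h1 in 5 of 18.

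The 1 member called lower at 5 weeks was Aa_G64090.h1, the same target that ran against the set in the annual internodes. It had 2.96 and 1.84 TPM in I_PZ replicates 1 and 2 and 0.612, 0.775 and 0.525 TPM in II_PZ, and then 36.5, 25.5 and 15.5 TPM in III_PZ and 19.5, 28.9 and 22.3 TPM in IV_PZ. The log2 fold change of II_PZ against I_PZ was -1.85 ± 0.47 (SE; adjusted p = 0.013, edgeR), and the call was lost without I_PZ replicate 1 (adjusted p = 0.16) or II_PZ replicate 3 (adjusted p = 0.061). Altogether this call was lost in 4 of 18 alternatives. Of the 4 perennial-zone ages, the level of Aa_G64090.h1 was lowest at 5 weeks.

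Set against the 5-week perennial zone, the short annual internode at 30 weeks held the members higher at the median. The summed levels of the 2 groups overlapped slightly, at 629 TPM in IV_AZ_si replicate 4 and 629.9 TPM in II_PZ replicate 3. IV_AZ_si was called higher than II_PZ in 68 members (45.3% of the set), against 29.3% of all tested targets. It was called lower in 13 (8.67% of the set), against 29.1% of all. Without IV_AZ_si replicate 2 the counts were 58 and 17 and the median log2 fold change was 0.79. The median log2 fold change was 0.93 (0.98 with members at 0 in a group set to their bound) against 0.03 over all targets, and 1.1 against 0.22 when scaled by TPM. This comparison shares its IV_AZ_si libraries with that of the annual internodes and its II_PZ libraries with that of 5 against 4 weeks, so the counts are given side by side. In TPM, all IV_AZ_si libraries lay above all II_PZ libraries for 57 members, 38% of the set, which is near the 37.6% of all targets. They lay below them for 10 members (6.67% of the set), against 22% of all. Without IV_AZ_si replicate 2 these numbers were 57 and 13. No share over all targets was taken without that library, so the counts without it have no background beside them.

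Aa_G643950.h1 (615 bases) had 3.69, 11.3, 2.92 and 3.38 TPM in IV_AZ_si and was at 0 in all II_PZ libraries. With the floor of 3 counts over II_PZ it was at least 82.1-fold higher (adjusted p = 1.27e-05, edgeR), and at least 51.7-fold without IV_AZ_si replicate 2, 52.7-fold without II_PZ replicate 2 and 54.6-fold without II_PZ replicate 3. Aa_G563860.h1 (2538 bases) had 0.727, 3.28, 0.217 and 0.0858 TPM in IV_AZ_si and was at 0 in II_PZ, so it was present in every short internode and uneven between them. It was at least 91.1-fold higher (adjusted p = 0.00246, edgeR), at least 28.2-fold without IV_AZ_si replicate 2, and 58.5- and 60.6-fold without II_PZ replicates 2 and 3.

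Lower in the short internode was Aa_G339910.h1, whose levels there, at most 1.09 TPM, lay below the 1.55, 1.67 and 1.25 TPM of II_PZ without overlap. Its log2 fold change was -2.07 ± 0.49 (SE; adjusted p = 0.00146, edgeR), and -3.26 without IV_AZ_si replicate 2. Aa_G604720.h1 (771 bases) had 0.144, 2.24, 0 and 0 TPM in IV_AZ_si and 2.28, 2.17 and 1.39 TPM in II_PZ, so IV_AZ_si replicate 2 lay within the II_PZ range and the other 3 below it. The log2 fold change was -1.92 ± 0.77 (SE; adjusted p = 0.0411, edgeR), and the call was lost in 10 of 19 alternatives. Its call was lost without II_PZ replicate 1 or 2 (adjusted p = 0.102 and 0.0908) and without IV_AZ_si replicate 1, 3 or 4 (0.0982, 0.09 and 0.0906), while without IV_AZ_si replicate 2 it was 47-fold lower on 3 and 131 counts.

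One short-internode library held more of the set than its group mates. IV_AZ_si replicate 2 was the highest of the 4 for 102 of the 150 members, against 22.8% of the 30158 targets of the table. Replicates 1, 3 and 4 were highest for 23, 10 and 8 members, against 24.3%, 18.2% and 17.6% of the table. Over the 116 members with at least 1 TPM, its level was a median of 1.62 times the mean of the other 3, against 0.992 over 20366 targets. The excess over the other 3 had a median of 6.39% of the IV_PZ mean. The other 3 libraries alone still held 629 to 759.7 TPM of the set, above the 347 to 420.2 TPM of IV_AZ_if.

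The 4-week library that the rule left out held the set at a level between its group mates and the 7-week stem. The summed level in I_PZ replicate 3 was 1135 TPM, against 420.4 and 397 TPM in replicates 1 and 2. It was above both of them for 140 of the 150 members, against 37.4% of all targets, and below both for 3, against 22.8% of all; nothing is read from these counts, since the content of this library shaped the rule. Those 3 were Aa_G424850.h1, Aa_G416370.h1 and Aa_G532680.h1, of which the first 2 are named after their values were seen, to complete the count. Of the 26 members at 0 in replicates 1 and 2, 23 had a level above 0 in replicate 3.

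**Figure D5:**
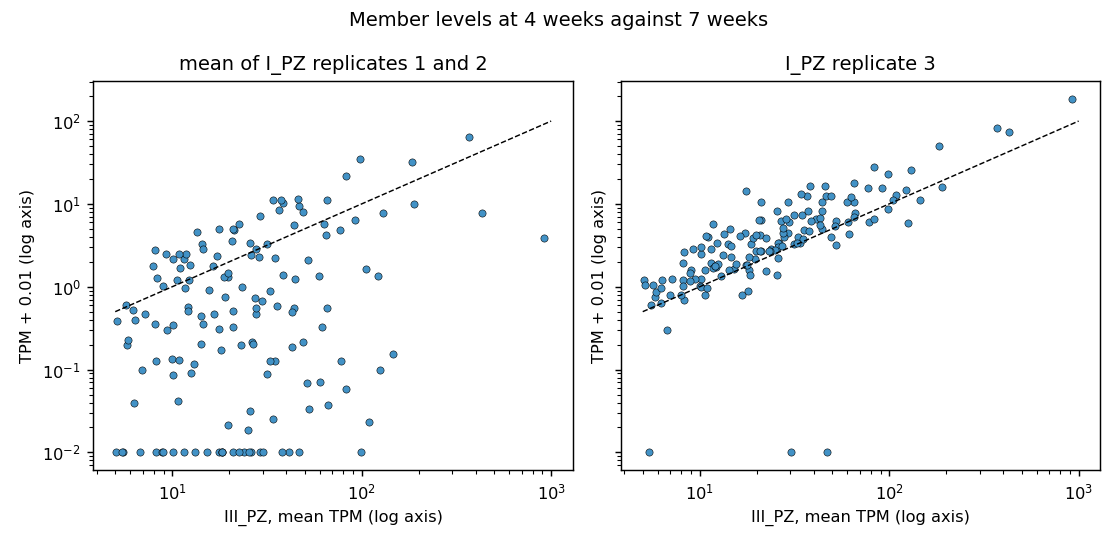
Level of each member at 4 weeks (TPM + 0.01) against its mean in III_PZ (TPM), both on logarithmic axes, for the mean of I_PZ replicates 1 and 2 (left) and for I_PZ replicate 3 (right), with the dashed line at 10% of the III_PZ mean. Most points of replicate 3 lie above the dashed line, with a median of 14.7% of the III_PZ mean, and 3 members are at 0. Those of the other 2 libraries spread from 0 to above the line.

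Measured against the 7-week stem, I_PZ replicate 3 held the members at 0% to 81.6% of their III_PZ mean. Its level was a median of 14.7% of the III_PZ mean (quartiles 10.8% and 22%), where the mean of replicates 1 and 2 was a median of 2.52% (quartiles 0.123% and 10.4%). The difference had a median of 10.2% of the III_PZ mean (quartiles 7.62% and 13.1%) and ran from -12.2% to 53.8%. For the 56 members whose mean in replicates 1 and 2 was under 1% of III_PZ, replicate 3 had a median of 10.7%, from 0% to 23.9%. Apart from the 3 members at 0 in all 3 I_PZ libraries, most of their 4-week level was that of replicate 3.

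Among the abundant members, Aa_G580550.h1 had 3.51, 4.21 and 186 TPM in I_PZ replicates 1, 2 and 3, Aa_G53830.h1 had 68.2, 58.8 and 81.7 TPM, and Aa_G432430.h1 had 9.47, 5.97 and 72.9 TPM. As a share of III_PZ, replicate 3 held 20.2%, 22.1% and 17% of them. For Aa_G53830.h1 the 3 libraries lay close together, and for the other 2 replicate 3 stood far above. Aa_G468680.h1 had 0.0271, 0 and 12.9 TPM, so replicate 3 held 11.8% of its III_PZ mean. The highest share was 81.6%, in Aa_G178520.h1 (255 bases), a target chosen after its values were seen, with 3.5, 6.3 and 14.4 TPM.

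No count in I_PZ replicate 3 was found for 3 members, all of them scarce in counts at 7 weeks. Aa_G206640.h1 had 45 counts in III_PZ, and a count of 0 in the 4-week library allows up to 19.3% of the III_PZ level. For Aa_G209850.h1 (38 counts) the limit was 22.9%, and for Aa_G319740.h1 (3 counts) it was 289%. All 3 limits lay above the members' median of 14.7%, so a count of 0 does not exclude a level at that median. What led to the level of the set in I_PZ replicate 3 was not tested.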

How the data were processed

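Per the labels' protocols, total RNA from whole internodes was made into stranded TruSeq mRNA libraries. The tools named are bcl2fastq and kallisto, per the submitters' processing notes (versions, reference and build: not given in the sources used here). Each library's deposited file lists 34220 targets with their estimated count and TPM, per the file headers. The deposited TPM table of the series holds 30158 of them, with the same values (largest difference 0). Of the coding lengths, 99.5% are multiples of 3.

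The members and lists were chosen with earlier results of these data known. Estimated counts were rounded and tested with edgeR 4.0.16 in R 4.3.3 (quasi-likelihood test, TMM scaling, minimum count 10 and minimum total 15, Benjamini-Hochberg adjustment over 23904 targets). One fit held 18 libraries, with I_PZ replicate 3 left out and the group as the only term. Standard errors came from the test statistic. Libraries held 21032841 to 27999048 counts; a group at 0 was set to a floor of 3 counts over the group, and a ratio against 1 to 3 counts was given a 95% interval (exact Poisson). Both cover counting error only. A target shares reads where any of its estimated counts is over 0.001 away from a whole number.

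Named targets were the 6 members with the largest gap, the 6 most abundant over III_PZ and IV_PZ, the 4 highest and 4 lowest fold changes of IV_PZ against III_PZ among those called without overlap in TPM, and the 2 highest and 2 lowest called of each other comparison below the gap with at least 1 TPM in the higher group. Also named were the 3 highest in I_PZ replicate 3, the 3 highest in a single IV_AZ_si library, the 3 on each side of the gap limit, and the longest and shortest member. In II_PZ against I_PZ only 1 member was called lower. Targets outside this rule are marked in the text. The gene lists and marker lists could not be matched to identifiers and were not tested here. The labels call the replicates biological. The p-values set group differences against the spread between these pooled libraries, estimated in 1 fit of all groups. Alternatives were RLE and TPM-scale size factors, DESeq2 1.42.0, a fit of the 2 groups alone, all 19 libraries, limma-trend of limma 3.58.1 on log2(TPM + 1) with and without a filter and on log2(TPM + 0.1), a replicate block, no filter on low counts, a fold of at least 2, no targets with shared reads, each library left out in turn, and other settings of the rule that chose the members.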

Additional observations from a re-analysis of the deposited data

Results flagged for a closer look

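In a check for a single library apart from the other 3 of its group, run on 31 values of IV_AZ_si, 8 values stood apart. Of these, 7 were high in replicate 2. Chance gives about 5% of groups only where these are independent and unselected. Here the values share their libraries, and some targets were named for their IV_AZ_si levels, so this rate is no yardstick. The measure is the gap to the nearest library divided by the range of the group, set against Dixon's critical value. In replicate 2, Aa_G101260.h1 had 0.778 TPM against 0 to 0.0162 in the others (0.979), Aa_G604720.h1 2.24 against 0 to 0.144 (0.936), and Aa_G751080.h1 4.85 against 0.106 to 0.403 (0.937). Aa_G643950.h1 had 11.3 TPM against 2.92 to 3.69 (0.908), Aa_G301660.h1 5.28 against 0.0702 to 0.817 (0.857), Aa_G468680.h1 7.13 against 0.246 to 1.39 (0.834), and Aa_G348140.h1 2.84 against 0.125 to 0.587 (0.83). In replicate 4, Aa_G319740.h1 had 5.15 TPM and the others 0 (1), on 1 estimated count.

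I_PZ replicate 3, which entered neither the choice of members nor the comparisons, held a summed level of 1135 TPM of the 150 members, against 420.4 and 397 TPM in I_PZ replicates 1 and 2.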

How the results depend on the processing

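Of the 150 members, 73 had a gap of at least 2. Leaving out 1 library in turn, 183 to 213 targets met the rule against 196, and 140 to 149 of the members were among them. For IV_PZ against III_PZ, 25 were higher and 26 lower. The number higher was 15 in limma-trend on log2(TPM + 0.1) and 13 at a fold of at least 2; the number lower was 46 with only the 2 groups, 9 with all 19 libraries, and 15 to 21 with 1 library left out. For IV_AZ_si against IV_AZ_if, 2 instead of 4 were lower with only the 2 groups and in limma-trend on log2(TPM + 1), with or without a filter. For II_PZ against I_PZ, 15 were higher and 1 lower. The number higher was 30 in DESeq2, 8 with only the 2 groups, 2 with all 19 libraries, 8 and 7 in limma-trend on log2(TPM + 1) with and without a filter, and 1 to 21 with 1 library left out. The number lower was 3 in DESeq2 and with only the 2 groups, 8 with all 19 libraries, 2 with TPM-scale size factors, in limma-trend on log2(TPM + 0.1) and without shared reads, and 0 to 2 with 1 library left out. A shared fit without IV_AZ_si replicate 2, added after the data were examined, also gave 2 lower. The causes were not tested.

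As a percent of estimated counts the members held 0.0504% in I_PZ, 0.0646% in II_PZ, 0.704% in IV_PZ and 0.102% in IV_AZ_si. Without the 3 most abundant members the shares of TPM were 0.0334%, 0.0397%, 0.487%, 0.478% and 0.0266% in I_PZ, II_PZ, III_PZ, IV_PZ and IV_AZ_if. With TPM-scale size factors the median log2 fold change of all targets was 0.19 for IV_AZ_si against IV_AZ_if and 0.22 for IV_AZ_si against II_PZ.

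Same-numbered libraries did not deviate together: the correlations of their deviations ran from -0.13 to 0.0487, so the numbers give no pairing. With a replicate block, 27 members were higher and 31 lower in IV_PZ against III_PZ, 96 and 3 in IV_AZ_si against IV_AZ_if, 12 and 1 in II_PZ against I_PZ, and 70 and 12 in IV_AZ_si against II_PZ. Among the named targets the block ended the calls of Aa_G246010.h1, Aa_G208620.h1, Aa_G35700.h1 and Aa_G604720.h1 (adjusted p = 0.0971, 0.0976, 0.0593 and 0.0721, edgeR). Of 353 alternative values for the 19 log2 fold changes named under the rule for called members, 295 kept their direction and call, 58 lost the call and 0 changed direction. Depth limits the members with few counts, and 2 of the 150 could not be tested.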
